A study of Mus musculus with 6 samples.

Results

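The proteasome subunits are described here in satellite cells, the muscle stem cells marked by the transcription factor Pax7, of mice fed a high-fat diet or chow. Members were the protein-coding genes whose symbol starts with Psma, Psmb, Psmc or Psmd and a number, without the 3 immunoproteasome genes Psmb8, Psmb9 and Psmb10. They came to 37 of the 27179 gene IDs in the files. Of these, 16 encode the 20S core, 8 in its alpha rings and 8 in its beta rings. Another 17 encode the 19S regulatory particle, 6 as ATPases and 11 as other subunits. Psmd5, Psmd9 and Psmd10 carry a subunit's symbol but encode chaperones that help assemble the 19S particle. Psmc3ip matched only because nothing in the rule ends the symbol after the number, and it encodes a meiotic recombination factor that binds Psmc3, not a proteasome subunit.

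Total RNA of sorted satellite cells was sequenced in 3 libraries of mice on high-fat diet and 3 libraries of mice on chow, described as obese and lean. Both groups were WT mice on the C57Bl/6N background and differed in the labels by diet alone. The sources used here do not give age, sex, the length and composition of the diets or the markers used for sorting. They also do not say whether the replicates of a diet came from separate animals. What the p-values measure is therefore only how these libraries vary, which may be technical.

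The proteasome degrades proteins tagged with chains of ubiquitin. Its core is a barrel of stacked rings: the outer alpha rings form the gate and the inner beta rings hold the proteolytic sites. The regulatory particle caps the barrel, binds and removes ubiquitin, and its ATPase ring unfolds the substrate and threads it through the gate. The subunits of a ring or cap are present in equal number, and in mammals their genes can be raised together by the transcription factor Nfe2l1 when degradation falls short. In muscle the pathway is best known for the loss of myofibre protein in atrophy, and satellite cells need it to survive and to divide.

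Libraries held from 14930394 to 18217818 counts, and a count of 3 corresponded to between 0.165 and 0.201 CPM (counts scaled by library size) on the library totals alone. All other CPM values also use TMM normalisation, which scales libraries by the trimmed mean of their gene ratios. High-fat diet library 1 and chow library 3 had the fewest genes with a count, 13879 and 13655, against 14939 to 15467 in the other 4. All 10 satellite cell markers were detected in every library, and their summed level was 5275, 4152 and 4258 CPM with high-fat diet, against 5317, 4420 and 4618 CPM with chow. Pax7 itself had 171, 247 and 283 CPM with high-fat diet, against 370.4, 405 and 429.7 CPM with chow, without overlap (log2 fold change -0.78 with an SE of 0.20, adjusted p = 0.180 in edgeR's quasi-likelihood test). Of the 10 markers 0 passed that test. Between the diets 3, or 30%, did not overlap, against 15.3% of all genes. Pax7 was lower with high-fat diet, and Itga7 and Chrdl2 were higher. At an unadjusted p under 0.05 in that test stood 4 markers, or 40%, against 7.65% of all genes. These were the same 3 and Myod1, whose diets overlapped (log2 fold change -0.70, unadjusted p = 0.0213). Endothelial markers summed to 219, 243 and 332 CPM with high-fat diet, against 274, 292 and 228 CPM with chow. Fibro-adipogenic progenitor markers summed to 277, 169 and 136 CPM, against 168, 160 and 154 CPM. Smooth muscle or pericyte markers summed to 56.3, 126 and 143 CPM, against 106, 163 and 101 CPM. The diets overlapped in each sum. Tek was the largest endothelial part and Dcn the largest progenitor part. Schwann cell and myofibre sums were at most 58.2 and 32.3 CPM. The part of these marker differences in the results below was not tested. In such bulk samples, fewer cells of a type and less RNA per cell cannot be told apart. Psma3, Psma4, Psma6, Psmb5, Psmb7, Psmc3ip, Psmc5, Psmd1, Psmd10 and Psmd13 overlap another annotated gene, and without a known strand setting their reads are uncertain to that extent. Values below are in the order of libraries 1, 2 and 3 of each diet.

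No proteasome gene passed the test for a difference between the diets. Of the 37 members, 33 had enough counts to be tested, and 0 of 33 had an adjusted p under 0.05 (edgeR's quasi-likelihood test, Benjamini-Hochberg over 13202 genes), where 34 genes or 0.258% passed over all genes, 12 of them higher with high-fat diet (0.0909%) and 22 lower (0.167%). The smallest adjusted p was 0.318, of Psmd9. At an unadjusted p under 0.05 stood 2 members, Psmd9 and Psmc5, or 6.06%, against a background of 7.65% of all genes. Both were lower with high-fat diet, a direction that 3.95% of all genes showed at that threshold, against 3.7% for the other. DESeq2 gave 1 member an adjusted p under 0.05, Psmd9, where it called 1.51% of 13112 genes in either direction and 0.892% as lower. With limma-voom 0 members were called. Of the members tested, 17 had a positive log2 fold change (high-fat diet over chow) and 16 a negative one, or 51.5% positive against 49.5% of all genes.

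The members lay on both sides of 0. Their median log2 fold change was 0.0072, against -0.0081 over all genes tested. The median for the 14 tested genes of the 20S core was 0.0014, with 7 positive and 7 negative. For the 17 genes of the 19S particle it was 0.07, with 9 positive and 8 negative. Both medians were within the spread between libraries (SD of the library medians 0.179 for the core and 0.338 for the regulatory particle) and changed sign when single libraries were left out, to between -0.10 and 0.15 for the core and between -0.18 and 0.14 for the regulatory particle.

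**Figure D1:**
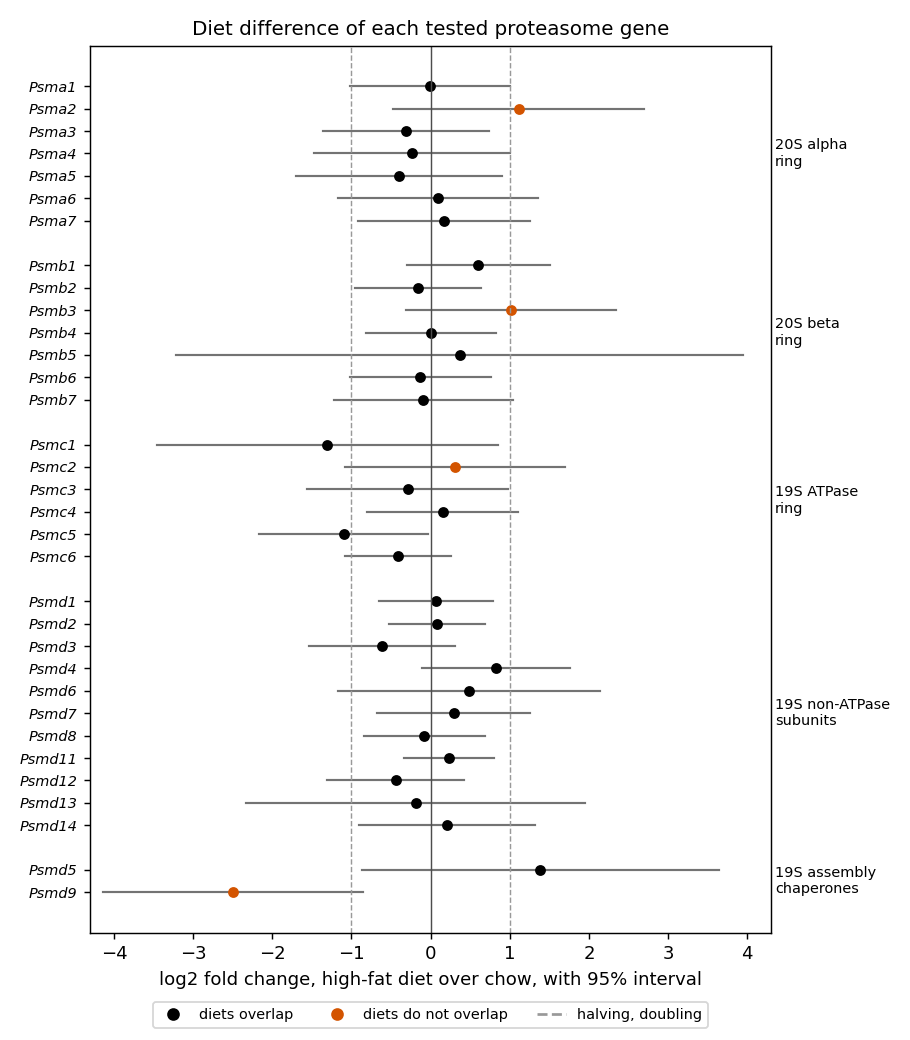
Log2 fold change of each of the 33 tested proteasome genes, high-fat diet over chow, with its 95% interval from the quasi-likelihood fit. Orange marks the 4 genes whose diets do not overlap and dashed lines mark a 2-fold difference in either direction. Psmd9 at the bottom, with -2.49, lies farthest from 0, and Psmb5 has the widest interval.

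How much each gene could have differed is given by its interval. For 6 of the 33 members, or 18.2%, the 95% interval lay wholly inside a 2-fold difference in either direction, against 20.4% of all genes. These were Psmb2, Psmb4, Psmd1, Psmd2, Psmd8 and Psmd11. For the other 27 members a 2-fold difference lay within the interval. Of the 8157 genes in the members' range of levels (3.57 to 70.9 CPM), 9.77% had an interval inside a 2-fold difference. Their median level was 13.9 CPM, against 24.5 CPM for the members. The median standard error of the members' log2 fold changes was 0.50, and the median size of the changes themselves was 0.29.

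Summed over its genes, each particle differed between the diets by less than the spread between libraries. The 16 genes of the 20S core together had 345, 283 and 329.8 CPM with high-fat diet, against 319.8, 259 and 313 CPM with chow, or 319 ± 32.7 and 297.3 ± 32.9 CPM (mean ± SD, n = 3 each), a ratio of 1.07. The 17 genes of the 19S particle together had 631, 617 and 550.4 CPM with high-fat diet, against 617, 534 and 714 CPM with chow, or 599.7 ± 43.2 and 622 ± 90.2 CPM, a ratio of 0.964. Diets overlapped in both sums. The ratio of core to regulatory particle was 0.547, 0.458 and 0.599 with high-fat diet, against 0.518, 0.486 and 0.438 with chow, and overlapped too. Within the 19S particle, the ATPase sum was 116, 168 and 125 CPM with high-fat diet, against 207, 160.1 and 181 CPM with chow, a ratio of 0.746 with overlap, since library 2 of the high-fat diet lay above library 2 of chow. No test was run on the sums.

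**Figure D2:**
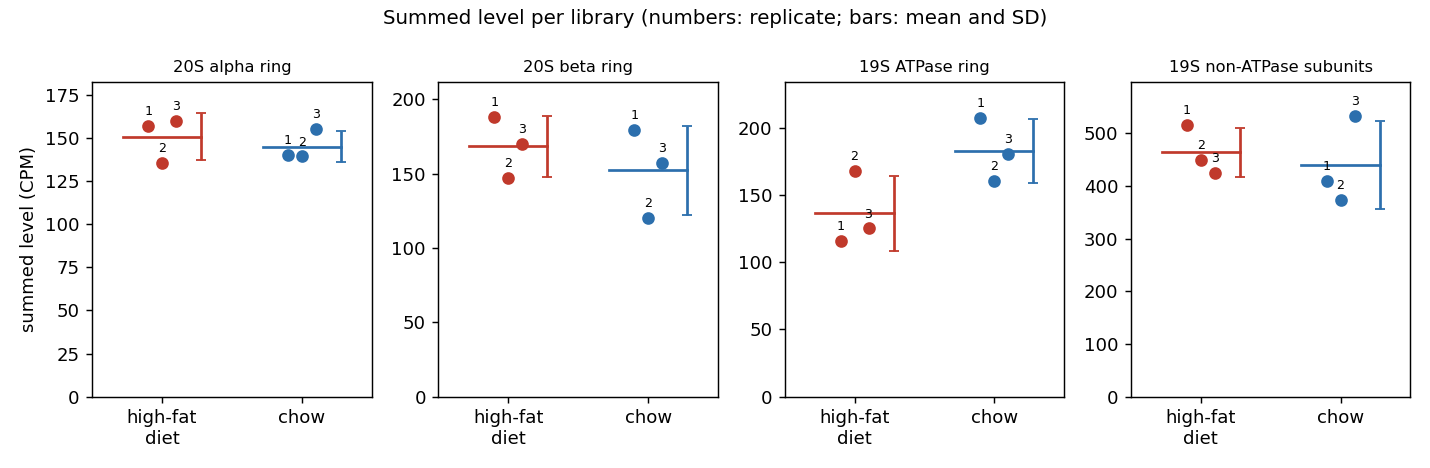
Summed CPM of the genes of each ring or particle in each library, with the replicate number beside each point and bars for the mean and SD of 3 libraries; the axis of each panel starts at 0. The ranges of the diets overlap in every panel, and the ATPase ring shows the lowest ratio, 0.746.

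Levels of different subunits were compared per kilobase of the longest annotated transcript. Such levels depend on that length, and which transcripts the reads came from was not tested. Per kilobase, averaged over the 6 libraries, Psmd8 was highest at 43.9 CPM, followed by Psmb2 at 34.8, Psmb6 at 33.3, Psmd4 at 32.8 and Psmb4 at 30.4 CPM. At the low end of the core and the regulatory particle were Psmb5 at 3.97, Psmc1 at 4.28, Psmd13 at 5.87, Psmc2 at 6.24 and Psma2 at 7.70 CPM. The ranges over libraries of neighbours in this order overlapped throughout the 33 members. Levels per kilobase ran from 3.97 to 34.8 CPM within the beta rings and from 4.28 to 43.9 CPM within the 19S particle, whose subunits are present in equal number as proteins. The 2 chaperones that were tested were at the low end too, Psmd5 at 1.77 and Psmd9 at 4.02 CPM per kilobase.

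**Figure D3:**
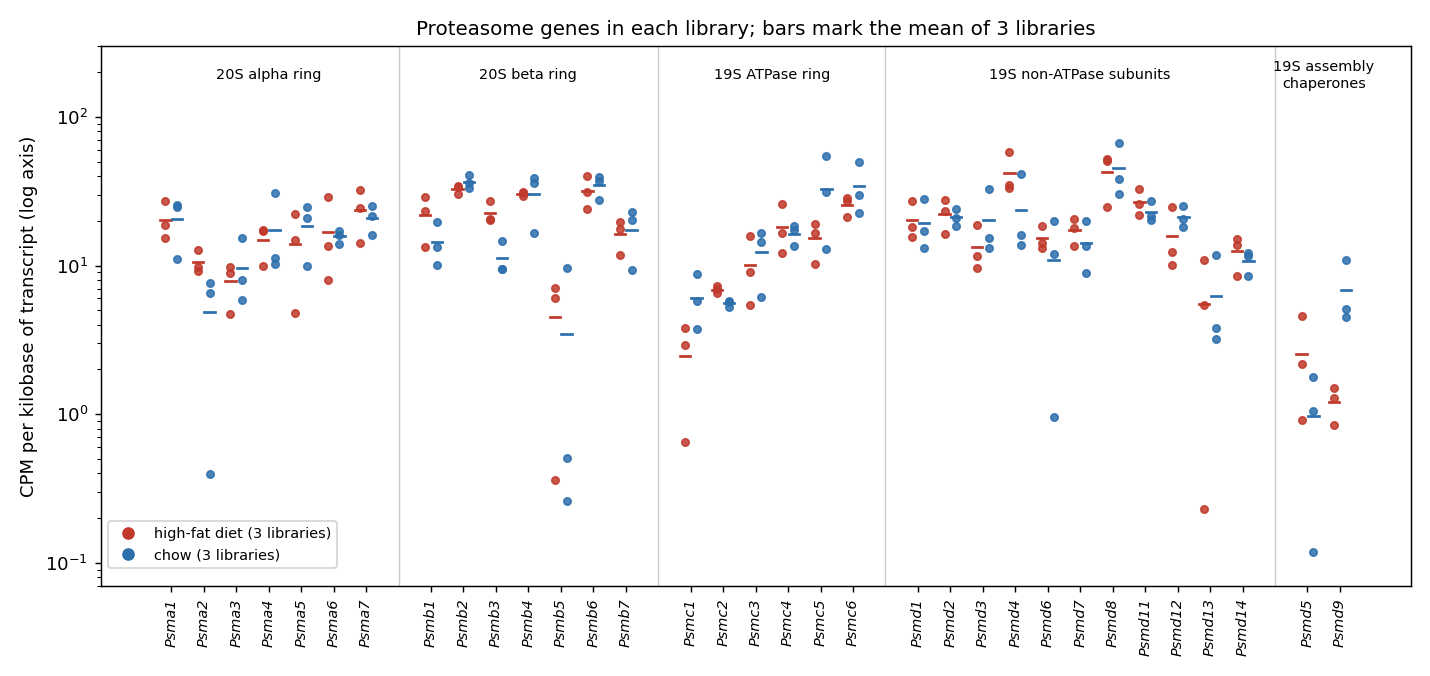
Level of each of the 33 tested proteasome genes in each library, in CPM per kilobase of transcript on a log axis, grouped by place in the particle; bars mark the mean of 3 libraries. The diets are intermingled for most genes. Single low libraries stand out for Psma2 and Psmd6 (chow library 3) and for Psmd13 and Psmc1 (high-fat diet library 1), and 3 low libraries, 1 with high-fat diet and 2 with chow, for Psmb5.

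In the alpha rings, 7 genes were tested and 0 passed, with 3 positive and 4 negative and a median log2 fold change of -0.0044. Psma2 (Entrez 19166, GRCm38 chromosome 13, 14613242-14625673), an alpha subunit of the gated outer ring, was the lowest of them per kilobase and the only alpha subunit whose diets did not overlap. The rank per kilobase rests on the 2911-base transcript used. Without division by length, its mean over the 6 libraries was 22.4 CPM, above the alpha genes' median of 20.4 CPM. Psma2 had 28.6, 26.6 and 36.7 CPM with high-fat diet, against 22.4, 19.1 and 1.15 CPM with chow. Chow library 3 lay far below the other 5, with 20 counts against 356 and 327 in chow libraries 1 and 2. The means were 30.6 ± 5.37 CPM with high-fat diet and 14.2 ± 11.4 CPM with chow, a log2 fold change of 1.11 ± 0.74 (SE; 95% interval -0.48 to 2.70, adjusted p = 0.858), and 0.57 without chow library 3.

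Psma5, also an outer-ring subunit, had 27.6, 5.95 and 18.5 CPM with high-fat diet, against 30.5, 12.3 and 26.0 CPM with chow, and a log2 fold change of -0.40 with an SE of 0.60 (adjusted p = 0.992). Psma7, the most abundant alpha subunit per kilobase, had 22.2, 29.5 and 12.9 CPM with high-fat diet, against 14.8, 19.6 and 23.1 CPM with chow, and a log2 fold change of 0.17 with an SE of 0.50 (adjusted p = 1.00). The ranges of the diets overlapped in both genes. Of the 75-base windows (the read length) of the Psma5 transcript, 39.8% also occur in other transcripts, most in the processed pseudogene Gm8394. Log2 fold changes of the other 4, Psma1, Psma3, Psma4 and Psma6, lay between -0.31 and 0.09. The eighth, Psma8, the alpha subunit of the testis particle, was at 0 in all 6 libraries.

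In the beta rings, 7 genes were tested and 0 passed, with 4 positive and 3 negative. The 3 catalytic subunits differed in level but not detectably between the diets. Psmb6, which carries the caspase-like site, had 31.9, 19.1 and 25.1 CPM with high-fat diet, against 22.0, 31.7 and 29.6 CPM with chow. Psmb7, which carries the trypsin-like site, had 13.7, 20.3 and 22.9 CPM with high-fat diet, against 26.4, 10.8 and 23.4 CPM with chow. Neither set of values separated the diets. The log2 fold change of Psmb6 was -0.13 ± 0.41 (SE; 95% interval -1.02 to 0.76), and that of Psmb7 was -0.09 ± 0.53 (SE; 95% interval -1.22 to 1.04), each with an adjusted p of 1.00. Of the windows of Psmb7, 24.1% are shared, most with its neighbour Nek6.

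Psmb5 (Entrez 19173, chromosome 14, 54614120-54617995), which carries the chymotrypsin-like site, was the least abundant of the 14 core genes tested. It had 97, 85 and 6 counts with high-fat diet, against 138, 4 and 8 counts with chow, or 6.31, 5.44 and 0.324 CPM against 8.66, 0.233 and 0.459 CPM. High and low libraries occurred under both diets. Its log2 fold change of 0.37 ± 1.67 (SE; 95% interval -3.22 to 3.95, adjusted p = 1.00) ran from -0.61 to 3.51 over the alternative fits, the highest without chow library 1. Of its windows 40.0% also occur in other transcripts, most of them in the processed pseudogene Gm3375, so that reads of these stretches cannot be assigned to Psmb5 alone.

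The structural beta subunits lay on both sides of 0. Psmb3 (Entrez 26446, chromosome 11, 97703434-97713500) had 20.7, 15.7 and 15.6 CPM with high-fat diet, against 7.28, 11.2 and 7.29 CPM with chow. Every high-fat diet library lay above every chow library. The means were 17.3 ± 2.90 and 8.59 ± 2.25 CPM (SD, n = 3 each), a 2.02-fold difference with a log2 fold change of 1.01 ± 0.62 (SE; 95% interval -0.31 to 2.34, adjusted p = 0.809). Of its windows 33.1% are shared, most with an unnamed pseudogene. Psmb1 had 51.1, 23.4 and 40.7 CPM with high-fat diet, against 34.6, 17.8 and 23.3 CPM with chow, and a log2 fold change of 0.60 with an SE of 0.42 (adjusted p = 0.876).

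Psmb2, the most abundant beta subunit per kilobase, had nearby values in all libraries. These were 29.5, 26.1 and 29.1 CPM with high-fat diet, against 35.0, 28.7 and 30.9 CPM with chow, a log2 fold change of -0.16 ± 0.37 (SE; 95% interval -0.95 to 0.63, adjusted p = 0.999). For Psmb4 the log2 fold change was 0.0072, with a 95% interval of -0.82 to 0.83. Psmb11, the beta subunit of thymic epithelium, had 2 counts in high-fat diet library 1 and 0 in the other 5.

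Of all 33 members, 4 had diets that did not overlap, or 12.1%, against a background of 15.3% of all genes. Psmd9 was lower with high-fat diet, where 7.87% of all genes showed no overlap in that direction, and Psma2, Psmb3 and Psmc2 were higher, where 7.42% did. The share of the members was near that of all genes. The 250 bases before the annotated start of these 4 genes are shown, since these are the members whose libraries separate by diet. They are RefSeq sequences of GRCm38.p6, read 5′ to 3′ on the plus strand. Capitals mark a CCAAT box (CCAAT or its reverse complement ATTGG) or the letters TGACNNNGC of the antioxidant response element, the sequence read by Nfe2l1 and Nfe2l2, on either strand.
Psmd9, chr5:123227940-123228189: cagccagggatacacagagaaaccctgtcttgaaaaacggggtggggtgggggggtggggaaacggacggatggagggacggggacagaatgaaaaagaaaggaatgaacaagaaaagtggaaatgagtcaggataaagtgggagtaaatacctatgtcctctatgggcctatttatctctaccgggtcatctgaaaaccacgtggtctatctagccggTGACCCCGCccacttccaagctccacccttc
Psma2, chr13:14612992-14613241: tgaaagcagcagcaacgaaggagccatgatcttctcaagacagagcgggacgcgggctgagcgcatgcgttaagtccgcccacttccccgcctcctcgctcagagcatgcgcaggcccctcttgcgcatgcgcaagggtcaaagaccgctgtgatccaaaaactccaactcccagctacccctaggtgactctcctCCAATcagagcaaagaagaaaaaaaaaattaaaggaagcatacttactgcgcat
Psmb3, chr11:97703184-97703433: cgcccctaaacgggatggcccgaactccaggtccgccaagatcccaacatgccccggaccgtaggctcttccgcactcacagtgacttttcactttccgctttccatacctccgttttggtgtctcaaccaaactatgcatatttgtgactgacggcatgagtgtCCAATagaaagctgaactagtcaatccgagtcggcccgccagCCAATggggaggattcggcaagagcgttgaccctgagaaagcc
Psmc2, chr5:21785025-21785274: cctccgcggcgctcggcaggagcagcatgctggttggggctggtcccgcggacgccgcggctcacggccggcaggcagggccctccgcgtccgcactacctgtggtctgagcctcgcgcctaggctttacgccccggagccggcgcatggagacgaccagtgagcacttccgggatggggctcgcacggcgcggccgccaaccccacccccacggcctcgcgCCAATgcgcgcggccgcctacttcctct

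RefSeq windows were found for 30 of the 37 members. Psmc2 and Psma6 have 2 windows each, for different starts, of which 1 holds a CCAAT box and the other does not; a gene was counted where any of its windows held the motif, and the Psmc2 window shown is the one with the box. The antioxidant response element occurred in 5 of the 30, or 16.7%, against 11.5% of 27025 genes with a window and 13.9% of those tested here. The CCAAT box occurred in 13 of the 30, or 43.3%, against 37.5% and 40.4%. The 2 motifs can overlap by 1 letter at most. The match of Psmb6 lies before the start used for its window but inside the annotated gene, which begins at 70525324. The 5 antioxidant response elements are shown with up to 10 bases on each side on the strand of the gene, with capitals on the match, which for Psmd12 and Psmc6 is the reverse complement.
Psmd9, chr5:123228149-123228177, plus strand: atctagccggTGACCCCGCccacttccaa
Psmb6, chr11:70525338-70525356, plus strand: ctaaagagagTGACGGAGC
Psmd12, chr11:107479278-107479299, plus strand: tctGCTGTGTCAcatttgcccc
Psmc6, chr14:45329587-45329615, plus strand: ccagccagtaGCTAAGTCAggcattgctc
Psmb5, chr14:54618024-54618052, minus strand: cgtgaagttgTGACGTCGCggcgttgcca

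A match describes letters in the window only. All 5 genes were tested, and their log2 fold changes ran from -2.49 to 0.37 with a median of -0.41. The 22 tested members with a window and no such match had a median of 0.09. For the CCAAT box the medians were 0.19 over 10 members with a match and -0.08 over 17 without one. Binding of a factor was not measured.

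In the ATPase ring, 6 genes were tested and 0 passed, with 2 positive and 4 negative and a median log2 fold change of -0.35. Psmc5 (Entrez 19184, chromosome 11, 106256185-106263112), a subunit of the unfoldase ring, had 13.5, 25.1 and 21.8 CPM with high-fat diet, against 41.1, 17.1 and 71.4 CPM with chow. Chow libraries 1 and 3 lay above all of high-fat diet and chow library 2 lay among them. The means were 20.2 ± 5.97 and 43.2 ± 27.2 CPM (SD, n = 3 each), and the chow mean was 2.14-fold the high-fat diet mean. Its log2 fold change was -1.10 ± 0.50 (SE; 95% interval -2.17 to -0.03, unadjusted p = 0.0441, adjusted p = 0.634), and -0.53 without chow library 3.

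Psmc6, the most abundant ATPase per kilobase, had 63.3, 60.9 and 47.1 CPM with high-fat diet, against 110.4, 66.9 and 50.7 CPM with chow. Its diets overlapped, and the log2 fold change was -0.41 ± 0.31 (SE, adjusted p = 0.898). Psmc1, the least abundant, had 1.04, 6.08 and 4.64 CPM with high-fat diet, against 9.23, 13.9 and 5.91 CPM with chow, a log2 fold change of -1.30 ± 1.00 (SE; 95% interval -3.46 to 0.85, adjusted p = 0.903). Chow library 3 lay just below high-fat diet library 2, so the diets overlapped.

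Psmc2, another ATPase, had 11.6, 12.3 and 13.0 CPM with high-fat diet, against 10.3, 10.2 and 9.42 CPM with chow. The diets did not overlap, at means of 12.3 ± 0.712 and 9.97 ± 0.483 CPM (SD, n = 3 each). The fit, which draws each gene's dispersion toward that of genes of like level, gave a log2 fold change of 0.30 ± 0.65 (SE; 95% interval -1.09 to 1.69, adjusted p = 0.999). Psmc3 and Psmc4, the other two, had log2 fold changes of -0.29 and 0.15.

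Among the non-ATPase subunits, 11 genes were tested and 0 passed, with 7 positive and 4 negative and a median log2 fold change of 0.08. Psmd4 (Entrez 19185, chromosome 3, 95032688-95042614), a ubiquitin receptor of the particle, had 44.3, 76.9 and 46.5 CPM with high-fat diet, against 21.3, 18.2 and 55.2 CPM with chow. Chow library 3 lay above 2 of the high-fat diet libraries. The means were 55.9 ± 18.2 and 31.6 ± 20.5 CPM (SD, n = 3 each), a 1.77-fold difference with a log2 fold change of 0.82 ± 0.44 (SE; 95% interval -0.11 to 1.76, adjusted p = 0.731). It was 1.503 without chow library 3 and 0.52 without high-fat diet library 2.

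Psmd3, a scaffold subunit of the lid, had 24.7, 20.6 and 40.2 CPM with high-fat diet, against 32.6, 28.3 and 70.3 CPM with chow, a log2 fold change of -0.62 with an SE of 0.43 (adjusted p = 0.876). Psmd8, a lid subunit and the most abundant member per kilobase, had 76.7, 79.3 and 37.5 CPM with high-fat diet, against 46.0, 57.7 and 101 CPM with chow, a log2 fold change of -0.08 ± 0.36 (SE). High and low libraries mixed in both genes. Psmd13, another lid subunit and the least abundant of this group, had 0.455, 10.7 and 21.5 CPM with high-fat diet, against 6.34, 7.58 and 23.4 CPM with chow, and its lowest library rested on 7 counts.

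The large scaffolds Psmd1 and Psmd2, of which Psmd2 is a docking site for shuttle proteins that bring ubiquitin-tagged substrates, had log2 fold changes of 0.07 and 0.08. For Psmd11, a lid subunit that stabilises the joint of core and cap, it was 0.23 ± 0.26 (SE; 95% interval -0.34 to 0.80), the smallest standard error of any member. Psmd14, the deubiquitinase that removes the chain, had 0.21, and its partner Psmd7 had 0.29. Psmd6 and Psmd12, also of the lid, had 0.49 and -0.44, and Psmd6 rested on 1.32 CPM (23 counts) in chow library 3, against 16.6 to 27.4 CPM for it in the other 5 libraries.

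The largest log2 fold change among the tested members was in an assembly chaperone, not a subunit. Psmd9 (Entrez 67151, chromosome 5, 123228190-123250126), which binds ATPases of the ring before the particle is built, had 51, 61 and 41 counts with high-fat diet, against 186, 226 and 493 counts with chow. These are 3.32, 3.90 and 2.21 CPM against 11.7, 13.2 and 28.3 CPM. Every high-fat diet library lay below every chow library. The means were 3.14 ± 0.858 and 17.7 ± 9.20 CPM (SD, n = 3 each), and the chow mean was 5.63-fold the high-fat diet mean.

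The log2 fold change of Psmd9 was -2.49 ± 0.76 (SE; 95% interval -4.14 to -0.85), with an unadjusted p of 0.00584 and an adjusted p of 0.318 in edgeR's quasi-likelihood test. DESeq2 gave -2.50 with an adjusted p of 0.0402, so that the call depended on the tool. Over the 17 alternative fits the log2 fold change was negative in each and ran from -2.72 to -1.98, the value nearest 0 coming without chow library 3. Since the diets did not overlap, leaving out libraries could not turn its sign. None of its windows of 75 bases is shared with another gene.

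Psmd5, a chaperone that binds another part of the ATPase ring, had 20.2, 4.03 and 9.55 CPM with high-fat diet, against 7.79, 4.61 and 0.517 CPM with chow. The ranges overlapped, and the log2 fold change was 1.39 ± 1.05 (SE; 95% interval -0.87 to 3.64, adjusted p = 0.899). Psmd10, the chaperone also known as gankyrin, had 139, 0 and 0 counts with high-fat diet, against 0, 25 and 0 counts with chow, and was not tested. Psmc3ip had 0 counts in the 3 high-fat diet libraries, against 63, 4 and 76 counts with chow, and was not tested either. It overlaps Mlx, with which 25.6% of its windows are shared, and no fold is given.

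In the fit, the spread between libraries broadly followed the level of each gene. The fit draws each gene's dispersion toward that of genes of like level, so this is partly built in. The median biological coefficient of variation, the relative spread between replicates in the fit, was 44.3% over the 33 members, against 62.2% over all genes and 60.1% over the 8157 genes in the members' range of levels (3.57 to 70.9 CPM). The members' median level was 24.5 CPM and that of those 8157 genes 13.9 CPM. Psmb5 had 131%, and the subunits around 70 CPM were the tightest. Members of like level could differ, with 82.8% for Psmd13 at 11.7 CPM, against 58.2% for Psmc2 at 11.1 CPM. The fitted value of Psmc2 was larger than the spread of its own libraries, which ran from 9.42 to 13.0 CPM. Those of Psmd13 ran from 0.455 to 23.4 CPM.

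**Figure D4:**
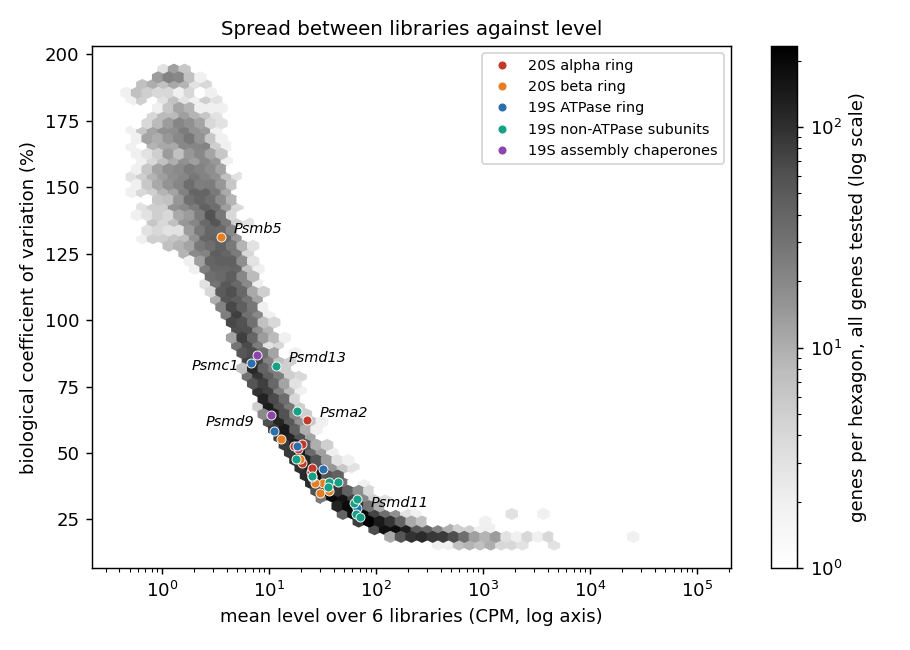
Biological coefficient of variation of each gene against its mean level over 6 libraries, as hexagons for all genes tested and as coloured points for the 33 proteasome genes. The proteasome genes lie along the band of all genes, from Psmb5 at 3.57 CPM and 131% to Psmd11 at 70.9 CPM. The fit draws these values toward those of genes of like level, so the band is partly built in.

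Pairs of subunits had a mean correlation near 0 from library to library. Over the 6 libraries, the mean correlation between pairs of genes (log2 CPM, Pearson) was -0.0048 within the 14 genes of the 20S core, -0.044 within the 17 of the 19S particle, -0.0049 between a gene of one and a gene of the other, and 0.0051 over all genes. These pairs share the same libraries, depth and scaling, and no test was run on them. No single library was high or low throughout. Chow library 1 was the highest of the 6 for 8 members, or 24.2%, against 17.7% of all genes, and high-fat diet library 2 was the lowest for 8, or 24.2%, against 12.8% of all genes.

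Immunoproteasome subunits, which replace the catalytic beta subunits in immune cells or under interferon, were low and variable. Psmb8 had 2.73, 5.69 and 7.66 CPM with high-fat diet, against 15.2, 3.91 and 24.5 CPM with chow, a log2 fold change of -1.44 with an SE of 0.85 (adjusted p = 0.794). Psmb9 had 0.260, 0 and 1.08 CPM with high-fat diet, against 0.126, 0.874 and 8.15 CPM with chow (adjusted p = 0.920). Psmb10 had 6.31, 0.959 and 9.01 CPM with high-fat diet, against 3.89, 4.66 and 2.93 CPM with chow (adjusted p = 0.999).

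With their activator genes Psme1 and Psme2, 0 of 5 passed and the median log2 fold change was -0.21. The summed level of 10 immune cell markers was 25.2, 17.9 and 7.61 CPM with high-fat diet, against 37.7, 18.9 and 48.9 CPM with chow. The highest library of this sum, chow library 3, was also the highest for Psmb8, Psmb9 and Psme2. Psmb10 and Psme1 had their lowest chow values there, 2.93 and 15.9 CPM, and the immune marker Csf1r was at 0. Of the 10 markers, Cd68 and Lyz2 made most of the sum, Ptprc was at most 0.377 CPM, and Adgre1, Cd3e, Ly6g and Tyrobp were at 0 in all 6 libraries. The part of immune cells in these values was not tested.

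Of the other activators and the inhibitor of the core, 0 of 3 passed, at a median log2 fold change of -0.09. Psme4, a large cap that opens the core without ubiquitin, had 280.2, 315 and 245 CPM with high-fat diet, against 176, 225 and 187 CPM with chow. The diets did not overlap. Its log2 fold change was 0.52 ± 0.18 (SE; 95% interval 0.13 to 0.90, unadjusted p = 0.0128, adjusted p = 0.421), a 1.43-fold difference. Psmf1, the inhibitor, had 4.16, 1.15 and 4.10 CPM with high-fat diet, against 3.52, 6.88 and 7.06 CPM with chow (log2 fold change -0.89, adjusted p = 0.987).

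Among 20S assembly chaperones 0 of 5 passed, at a median of 0.50. Psmg2 had 16.2, 4.92 and 9.44 CPM with high-fat diet, against 1.82, 5.42 and 7.69 CPM with chow, a log2 fold change of 1.03 (adjusted p = 0.937). Psmg4 had 11.3, 2.81 and 0.701 CPM with high-fat diet, against 5.96, 8.45 and 17.6 CPM with chow, a log2 fold change of -1.12 (adjusted p = 0.939). The members of this list thus lay on both sides of 0.

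Of the other 19S subunits and associated enzymes 0 of 7 passed, at a median of 0.34, with 6 positive and 1 negative. Sem1, a small lid subunit that binds ubiquitin, had 52.2, 44.5 and 25.7 CPM with high-fat diet, against 25.1, 31.8 and 9.88 CPM with chow, a log2 fold change of 0.87 with an SE of 0.47 (adjusted p = 0.742). Txnl1, a thioredoxin bound to the particle, had 48.9, 49.2 and 73.5 CPM with high-fat diet, against 53.6, 42.5 and 18.1 CPM with chow (log2 fold change 0.59, adjusted p = 0.858). The ranges overlapped in both.

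Of 10 transcriptional regulators of proteasome genes and their processing enzymes, 0 passed, with 5 positive and 5 negative and a median of -0.0074. Nfe2l1, which drives the joint increase of subunit genes when proteasomes are inhibited, had 122, 119 and 98.9 CPM with high-fat diet, against 108, 116 and 99.2 CPM with chow, a log2 fold change of 0.07 ± 0.21 (SE; 95% interval -0.37 to 0.52, adjusted p = 0.999). Nfe2l2, the oxidative stress factor that reads the same element, had 540.0, 399 and 453 CPM with high-fat diet, against 358, 382 and 369 CPM with chow, without overlap and with a log2 fold change of 0.33 with an SE of 0.16 (adjusted p = 0.698). Foxo3, a factor that raises atrophy genes in muscle, had 31.9, 48.3 and 57.6 CPM with high-fat diet, against 75.1, 70.9 and 47.2 CPM with chow (log2 fold change -0.49, adjusted p = 0.848).

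Of 11 genes that deliver substrates to the proteasome or place it in the cell, 0 passed, at a median of 0.09. Akirin2, which brings proteasomes into the nucleus, had 99.4, 101 and 81.8 CPM with high-fat diet, against 58.4, 63.1 and 36.4 CPM with chow. Every high-fat diet library lay above every chow library, at means of 93.9 ± 10.5 and 52.6 ± 14.3 CPM (SD, n = 3 each). Its log2 fold change was 0.83 ± 0.27 (SE; 95% interval 0.25 to 1.42, unadjusted p = 0.00891, adjusted p = 0.373). Zfand5, a zinc finger protein that stimulates the particle, had 417, 441 and 417 CPM with high-fat diet, against 561, 486 and 537 CPM with chow, a log2 fold change of -0.31 with an SE of 0.15 (adjusted p = 0.671).

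Of the genes that encode ubiquitin and its activating enzymes, 0 of 5 tested passed, at a median log2 fold change of -0.35. The stress-inducible polyubiquitin gene Ubb had 443, 469 and 539 CPM with high-fat diet, against 784, 707 and 644 CPM with chow. All high-fat diet libraries lay below all chow libraries, at means of 484 ± 50.0 and 712 ± 69.9 CPM (SD, n = 3 each). Its log2 fold change was -0.56 ± 0.16 (SE; 95% interval -0.89 to -0.22, unadjusted p = 0.00309), with an adjusted p of 0.259 in edgeR's quasi-likelihood test, 0.0163 in DESeq2 and 0.0486 in limma-voom, so that this call too depended on the tool.

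Rps27a, which encodes ubiquitin fused to a ribosomal protein, had 66.2, 45.9 and 50.2 CPM with high-fat diet, against 114, 68.7 and 76.7 CPM with chow, also without overlap (log2 fold change -0.68 ± 0.28, SE, adjusted p = 0.570). The list's summed level was 819.7, 785 and 876 CPM with high-fat diet, against 1227, 1019 and 1038 CPM with chow.

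Of the ubiquitin ligases known from muscle atrophy, 0 of 4 tested passed, at a median of -0.29, and all 4 log2 fold changes were negative. Fbxo32, or atrogin, had 7.09, 33.7 and 38.7 CPM with high-fat diet, against 58.0, 38.8 and 37.5 CPM with chow, a log2 fold change of -0.76 with an SE of 0.51 (adjusted p = 0.865). Its lowest value was in high-fat diet library 1 and the ranges overlapped. Fbxo21 had -0.47 (adjusted p = 0.992). The most abundant of the 4, Fbxo30 at a mean of 453 CPM, had -0.02 with an SE of 0.15. Traf6 had -0.11 with an SE of 0.51. Trim63, the ligase of sarcomere proteins in mature fibres, was at 0 in 5 libraries and at 0.058 CPM in chow library 2.

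**Figure D5:**
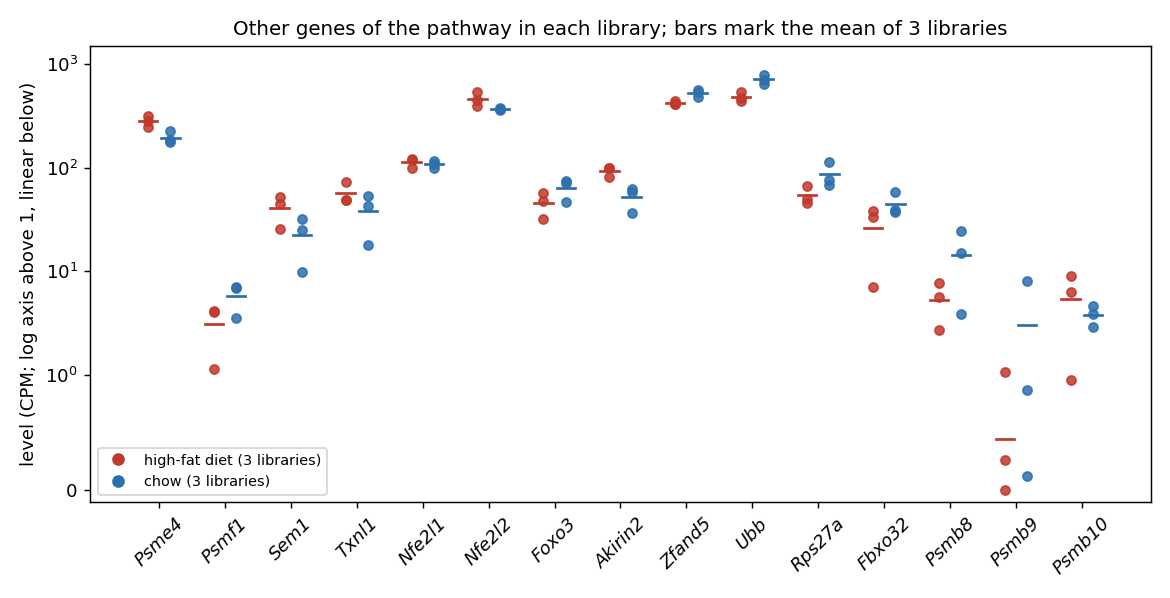
Level of 15 other genes of the ubiquitin and proteasome pathway in each library, in CPM on an axis that is logarithmic above 1 and linear below it; bars mark the mean of 3 libraries. Psme4, Nfe2l2 and Akirin2 lie higher in every high-fat diet library than in any chow library, and Zfand5, Ubb and Rps27a lie lower. Most of the genes shown were picked for the smallest p of their list, so this share cannot be read against the 15.3% of all genes without overlap, and none of the 6 had an adjusted p under 0.05 in edgeR's quasi-likelihood test.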

How the data were processed

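The authors deposited raw counts, 1 file per library, in which each Entrez gene ID has a whole number of reads and no normalization was applied. Bowtie2, featureCounts and the builds GRCm38 and mm10 are named in the submitters' processing notes. The sources used here give no versions, strand setting or treatment of reads that map to several places, so reads of overlapping genes (10 members) and of near-identical copies cannot be told apart. Libraries were 75-base single reads after ribosomal RNA depletion, per the labels' protocols.

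Symbols were matched through the RefSeq gene table of GRCm38.p6 for 25275 of 27179 IDs and through GENCODE M21 for 18 more. Members and gene lists were chosen with earlier results of these data known. Genes were kept by filterByExpr (minimum count 10) and tested across all 13202 genes in R 4.3.3 with edgeR 4.0.16 (TMM, glmQLFit, glmQLFTest, two-sided), with diet as the only factor and Benjamini-Hochberg adjustment. A gene was called at an adjusted p under 0.05. The standard error is the size of the log2 fold change over the root of the F statistic, and the 95% interval uses the t quantile at the fit's degrees of freedom (11.7 to 13.7). The code was tested on simulated data.

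CPM per kilobase used the longest GENCODE M21 transcript with a RefSeq match, and shared windows are stretches of 75 bases also found in transcripts of other genes. Per-library values are given for the catalytic subunits and, per ring or group, for the 2 members with the smallest unadjusted p and the highest and lowest per kilobase, for Psmb8, Psmb9 and Psmb10, and for up to 2 genes of each further list. Psmc2, Psmd6, Psmd10, Psmc3ip, Nfe2l1, Psme1, Psme2 and the markers Pax7, Itga7, Chrdl2, Myod1, Csf1r, Tek and Dcn were added after their values were seen. The same holds for Fbxo30 and Traf6. Alternatives were 3 other scalings, 2 filters, DESeq2 1.42.0, limma-voom (limma 3.58.1), a replicate block, removal of a length trend or of mitochondrial genes, and leaving out libraries. All pairs of libraries differed by more than sampling noise and none was merged. Some genes of the lists are not reported here. Count floors cover counting error only.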

Additional observations from a re-analysis of the deposited data

How the results depend on the processing

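No member was called in 16 of the 17 alternative fits, and DESeq2 called 1, Psmd9. The number of genes called in all, 34 in edgeR's quasi-likelihood test, was 198 with DESeq2, 163 with no filter on low counts, 99 with limma-voom and 1 without high-fat diet library 1 and chow library 3. It ran from 9 to 44 when each library was left out in turn, with 18, 9 and 44 called without high-fat diet libraries 1, 2 and 3 and 19, 10 and 10 without chow libraries 1, 2 and 3. The median log2 fold change of the 20S core ran from -0.10 to 0.15 and that of the 19S particle from -0.18 to 0.14 in these leave-one-out fits. The core's median was 0.20 without high-fat diet library 1 and chow library 3. Of the 33 members, 14 kept the sign of their log2 fold change in all 17 alternatives and 19 did not.

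Equal replicate numbers did not pair the libraries: the correlation of their deviations from the diet means lay between -0.0261 and 0.0346 over the 3 pairs. With the replicate number as a block, 45 genes and 0 members were called, and the medians were 0.01 for the core and 0.05 for the 19S particle.

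With 3 libraries per diet, a 2-fold difference lay within the 95% interval of 27 of the 33 members. Differences of that size could therefore not be excluded for most members. Members with few counts, such as Psmb5, or with a large spread between libraries, such as Psmd13, were limited most. Differences in protein or in proteasome activity were not measured. The cause of the differences between tools and settings was not tested.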
